A study of Danio rerio with 6 samples.

Results

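Selenoproteins are described here through 10 zebrafish genes: selenol, selenop, selenop2, selenof, selenot1a, selenow1, gpx1a, gpx1b, gpx4a and gpx4b. They were found among the 32520 genes of the deposited tables by zebrafish symbol, looked up by Ensembl identifier with the paralog read from the chromosome. They were chosen by their TPM and fold changes between the labelled genotypes, with those values already in view, so that difference is given for these genes as a description. How many of them pass a threshold is printed beside the share of all genes that do, and supports nothing. Another 24 genes of the tables matched a list of further zebrafish selenoproteins, of which 22 passed the filter on low values and were tested.

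A selenoprotein carries selenocysteine, an amino acid with selenium in place of the sulfur of cysteine, usually at the catalytic site of an enzyme that transfers electrons. Selenocysteine is inserted at a UGA codon that would otherwise end translation, which needs an RNA element in the message, a dedicated transfer RNA and several protein factors. The best known members are glutathione peroxidases, thioredoxin reductases and the deiodinases of thyroid hormone, and selenoprotein P, made mainly by the liver, carries selenium through the plasma to other tissues. Teleost fish kept many duplicated selenoprotein genes and several families that mammals lack.

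The study compared zebrafish larvae labelled (stim2a;stim2b)-/- with larvae labelled (stim2a;stim2b)+/+, without treatment, at 5 days post fertilization. STIM2 is a calcium sensor of the endoplasmic reticulum that opens calcium channels in the plasma membrane, and stim2a and stim2b are its zebrafish paralogs. Each sample was RNA from 30 whole larvae in a pool, and each labelled genotype had 3 samples. No label ties a pool to a clutch of its own, so a p-value reflects the spread among these 6 samples, which may be technical. The alleles are not described in the sources used here.

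The RNA of both targeted genes ran against the labels. For stim2a, 0.328 ± 0.0752 TPM (a share of transcripts corrected for gene length, scaled to a fixed total; SD, n = 3) was found in the libraries labelled +/+ and 1.31 ± 0.104 in those labelled -/-. This is a log2 fold change of 1.13 ± 0.13 (SE; limma, adjusted p = 0.00213). For stim2b the levels were 0.580 ± 0.128 and 1.57 ± 0.258 TPM (log2 fold change 0.94 ± 0.15, limma, adjusted p = 0.00871). File naming by the submitters also points the other way from the labels. Groups are therefore called by their label throughout, and every direction below rests on it. In a table of the authors' own test, all 6377 genes that were called both there and here had the opposite sign to labelled -/- minus labelled +/+. The tables give no counts, so absolute depth is unknown. Relative depth, taken as the modal ratio of coverage over FPKM, ran from 4.64 to 5.93 over the 6 libraries. Mitochondrial genes took 8.50 to 10.3% of TPM in libraries labelled +/+ and 6.93 to 9.29% in those labelled -/-. The 200 most abundant genes took 56.1 to 59.6% and 52.9 to 56.8%. Of 20330 genes tested across the transcriptome, 39.6% were called at an adjusted p under 0.05, 30.8% higher and 8.76% lower in the libraries labelled -/-, and the median log2 fold change was 0.22. Rescaling each library by its median gene ratio brought that median to 0.02. For the 10 selenoprotein genes log2 fold changes are given both as deposited and rescaled. For other genes the rescaled value is given where it ends or makes a call or differs by over 1.5 times.

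The 10 genes spanned a wide range of abundance, with 2 phospholipid peroxidases, a small redox protein and a plasma selenium carrier at the top. In libraries labelled +/+ the order by mean TPM, a level per length, was gpx4a, selenow1, selenop, gpx4b, selenof, selenop2, gpx1a, selenot1a, gpx1b and selenol. Every neighbour in this order was separated in its 3 libraries except selenop and gpx4b, whose ranges overlapped. In libraries labelled -/- selenop2 stood before selenof, and the ranges of gpx4a, selenow1 and selenop overlapped, as did those of selenop2, selenof and gpx1a. By mean TPM over all libraries, gpx4a was 209th and selenow1 244th of the 20330 tested genes, whereas gpx1b was 2772nd and selenol 14741st.

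**Figure D1:**
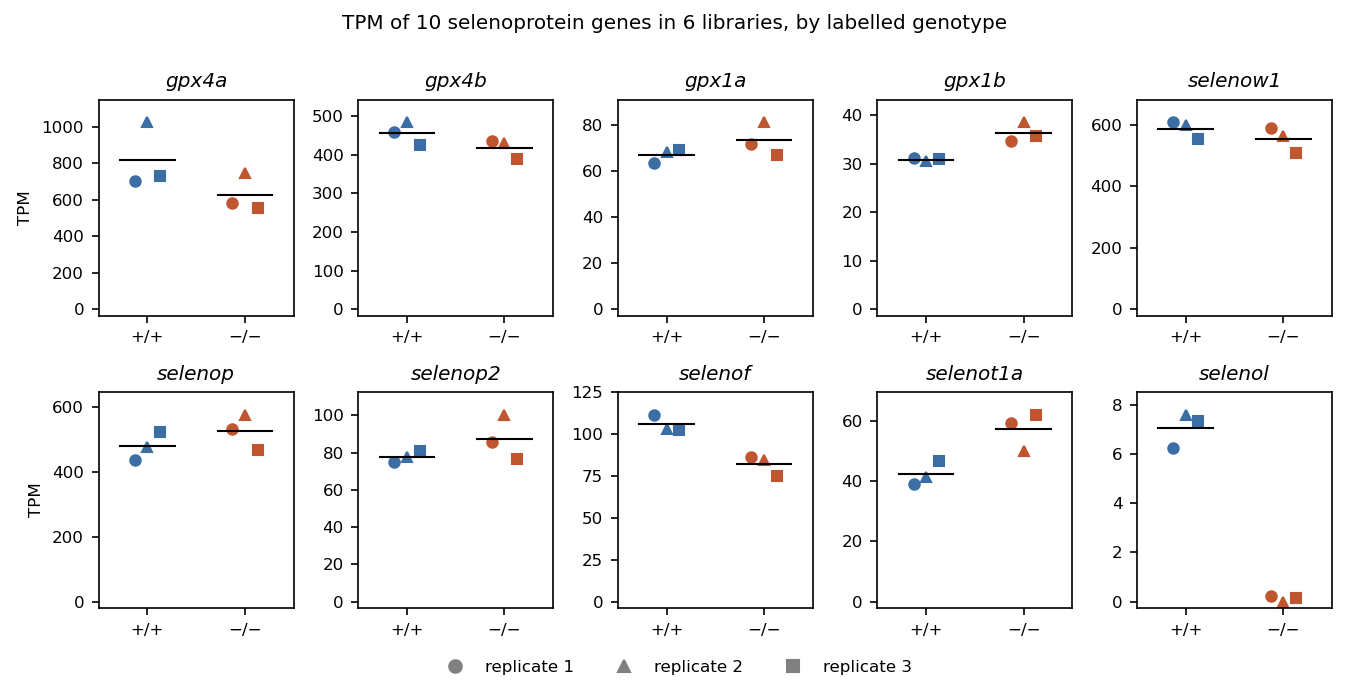
Level in TPM (vertical axis, linear, with its own scale in each panel) of the 10 selenoprotein genes in the 6 libraries, by labelled genotype (horizontal axis). Points are libraries, shapes are replicate numbers and lines are group means, left out for selenol labelled -/-, where 1 library is listed at 0. The groups do not overlap for selenol, selenof, selenot1a and gpx1b, and gpx4a is highest in replicate 2 of both groups.

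Summed over the 10 genes, the libraries labelled +/+ held 2536, 2912 and 2572 TPM and those labelled -/- held 2482, 2672 and 2236 TPM. The sums overlapped between the groups. In the group labelled +/+ most of the spread lay in gpx4a, which made up 27.8, 35.2 and 28.4% of the summed TPM in libraries labelled +/+ and 23.5, 28.0 and 24.8% in those labelled -/-. Without it, the other 9 genes summed to 1832, 1887 and 1841 TPM against 1897, 1925 and 1681 TPM. The 24 further selenoprotein genes together reached 610, 614 and 617 TPM against 607, 547 and 554 TPM. In this sum every library labelled -/- was lower than every library labelled +/+, replicate 1 labelled -/- by little. It holds selenom, at 80.0 ± 4.31 and 33.6 ± 1.40 TPM in the groups labelled +/+ and -/- (SD, n = 3 each). It also holds selenoh, which ran from 5.27 to 53.6 TPM within the group labelled +/+. The sum without these genes was not taken, so it shows no drop shared by the 24 genes. In whole larvae, fewer cells of a type and less RNA per cell cannot be told apart.

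Of the 10 genes, 3 passed the threshold across the transcriptome, where 39.6% of all tested genes did. These were selenot1a, which was higher in the libraries labelled -/- (background 30.8%), and selenol and selenof, which were lower (background 8.76%). The groups did not overlap in 4 of the 10 genes, 2 higher and 2 lower, against 55.8% of all tested genes, 39.5% higher and 16.3% lower. The median log2 fold change of the 10 genes was 0.02, and 8 of them lay below the all-gene median of 0.22. After rescaling, the median was -0.21, 9 of the 10 lay below the all-gene median of 0.02, and the 3 that passed were selenol, selenof and gpx4a, each lower, where 44.4% of all tested genes were called, 22.8% higher and 21.6% lower. With the replicate number as a block, 5 of the 10 passed, 2 higher and 3 lower, where 58.8% of all tested genes did, 45.6% higher and 13.3% lower. In the authors' deposited table, 3 of the 10 (selenol, selenof and gpx4a) have an adjusted p under 0.05, as do 31.9% of the genes given one there. Leaving out replicate 1 or replicate 2 labelled +/+ left 1 of the 10, selenol, when 891 and 657 of all 20330 genes were called. Leaving out replicate 1 or replicate 3 labelled -/- left 2, without selenot1a, when 4418 and 4481 of all genes were called. Leaving out replicate 2 labelled -/- gave 4, with gpx4a, when 7947 of all genes were called. All 10 genes passed the filter on low values.

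Selenoprotein L, a fish selenoprotein with a thioredoxin-like fold that mammals lack, was near the floor in every library labelled -/-. Its gene selenol (ENSDARG00000088444.3) is on the minus strand of chromosome 20, 3943237 to 3953631. It reached 6.22, 7.59 and 7.32 TPM in the libraries labelled +/+ and 0.243, 0 and 0.132 TPM in those labelled -/-. The lowest library labelled +/+ thus lay 25.6-fold above the highest one labelled -/-, and 1 library labelled -/- listed the gene at 0. Deposited mean coverage per base was 26.3, 31.5 and 27.4 against 0.892, 0 and 0.496. Its log2 fold change was -3.61 ± 0.17 (SE), or -3.74 after rescaling. This ranged from -3.74 to -3.46 when 1 library was left out. Its size depends on the pseudocount, being -5.16 with 0.1 TPM and -2.84 with 1 TPM. The gene was 1 of 8 that held at least 5 TPM in every library labelled +/+ and less than 0.25 TPM in every library labelled -/-. These limits lie close to the values of selenol itself, which were already known, so the count is only a description. In the authors' deposited table selenol has a log2 fold change of 3.18 with a standard error of 0.396 and a mean normalized count of 171.

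As deposited, none of the tested genes beside selenol was called lower. The 100 kb window was chosen after values were seen, as were the neighbours named. Of 8 tested genes within 100 kb, 1 was called higher as deposited and 0 lower. This was C20H1orf198 (log2 fold change 0.57, or 0.35 after rescaling, limma, adjusted p = 0.0303, up to 0.116 with 1 library left out). Of all tested genes 30.8% were higher and 8.76% lower. After rescaling fam89a, 72.8 kb away, was called lower (-0.37, limma, adjusted p = 0.0154), where 21.6% of all tested genes were. As deposited fam89a had a log2 fold change of -0.15 (limma, adjusted p = 0.310). On one side ttc13, 0.9 kb away, held 11.2 ± 1.28 and 14.0 ± 0.977 TPM (SD, n = 3 each) in the libraries labelled +/+ and -/-. Its log2 fold change was 0.32 (limma, adjusted p = 0.0604, or 0.0105 with the replicate block), or 0.10 after rescaling. On the other side clec11a held 3.93 ± 0.634 and 3.91 ± 0.316 TPM. Its log2 fold change was -0.00024 (limma, adjusted p = 0.999), or -0.20 after rescaling. A row too low to test, si:ch73-111k22.3, lies 27.5 kb away and held 1.19, 0.624 and 0.681 TPM in libraries labelled +/+ and 0, 0.252 and 0 TPM in those labelled -/-. The genes whose log2 levels followed selenol most closely over the 6 libraries were anxa13, EEF2, dhrs7ca, msrb1b and septin10, with Pearson r from 0.997 to 0.998. Since the groups are far apart in selenol, this measure mostly picks genes that are lower in libraries labelled -/- and vary little within a group. Of 16929 genes with an informative symbol, 42 had r of at least 0.99.

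**Figure D2:**
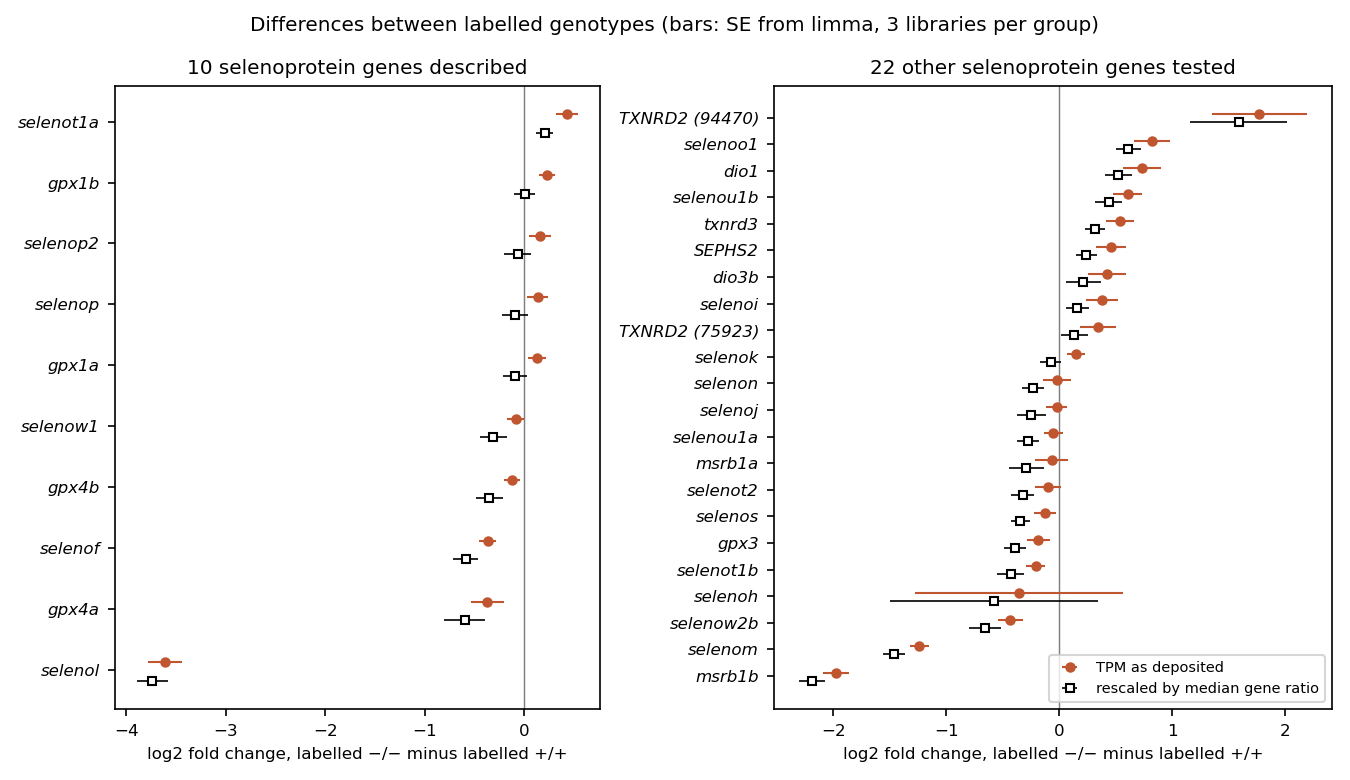
Log2 fold change on log2(TPM + 0.5), libraries labelled -/- minus those labelled +/+ (horizontal axis), for the 10 selenoprotein genes described (left) and the 22 further selenoprotein genes tested (right). Circles are TPM as deposited, squares are TPM rescaled by the median gene ratio and bars are the standard error from limma with 3 libraries per group. Each gene shifts to the left on rescaling, selenol lies alone near -3.61 on the left, and msrb1b and selenom lie lowest on the right. The 2 overlapping rows named TXNRD2 carry the last 5 digits of their identifiers.

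Selenoprotein P, the plasma carrier with several selenocysteines, and its shorter paralog selenop2 differed little between the groups. The selenop gene (ENSDARG00000093549.2, chromosome 8, plus strand, 31435452 to 31443334) reached 437, 476 and 523 TPM in libraries labelled +/+ and 532, 577 and 469 TPM in those labelled -/-. The selenop2 gene (ENSDARG00000079727.5, chromosome 2, plus strand, 27394798 to 27401105) reached 74.9, 77.7 and 81.0 TPM against 85.4, 100.3 and 76.4 TPM. In both genes the groups overlapped, replicate 2 was the highest library labelled -/- and replicate 3 the lowest. Log2 fold changes were 0.13 ± 0.10 (SE) for selenop, turning to -0.09 after rescaling, and 0.16 ± 0.11 for selenop2, turning to -0.07. Within a library, selenop stood 6.14 ± 0.310 times above selenop2 in the group labelled +/+ and 6.04 ± 0.257 times in that labelled -/- (SD, n = 3 each). This ratio does not depend on the scaling, and its groups overlapped. Markers of hepatocytes, in which selenop is mainly made, summed to 16058 to 18826 TPM against 14249 to 16152 TPM over 16 genes. Of these markers 4 were higher and 4 lower, where 30.8% and 8.76% of all tested genes were, and none was at 0 in all libraries. After rescaling 1 marker was higher and 4 were lower, where 22.8% and 21.6% of all tested genes were. Their part in the selenop level was not tested.

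A second transcript unit lies within the selenop span on the same strand. This row, si:ch211-226f24.4, held 4.09, 2.69 and 4.12 TPM in libraries labelled +/+ and 0.341, 0.278 and 0.471 TPM in those labelled -/-. It was lower without overlap, with a log2 fold change of -2.24 ± 0.18 (limma, adjusted p = 0.000422). As it overlaps selenop on one strand, how reads were divided between them is uncertain.

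The glutathione peroxidase 4 paralogs, which reduce lipid hydroperoxides in membranes, were the most abundant peroxidases of the set. For gpx4a (ENSDARG00000068478.6, chromosome 22, minus strand, 17589608 to 17611742) the libraries labelled +/+ held 704, 1025 and 730 TPM and those labelled -/- held 584, 747 and 555 TPM. Replicate 2 was the highest library in both groups, and the groups overlapped. Among libraries of equal number the one labelled -/- was the lower in all 3 pairs, but no label gives this pairing. Set against replicate 2 labelled -/-, at 747 TPM, replicate 1 labelled +/+ was the lower, at 704 TPM. In log2 terms the difference was -0.37 ± 0.17 (SE) as deposited and -0.60 after rescaling, and gpx4a is among the genes past the threshold after rescaling and with the replicate block. For gpx4b (ENSDARG00000076836.4, chromosome 2, minus strand, 56642138 to 56655769) the values were 460, 484 and 425 TPM against 436, 431 and 388 TPM. The groups overlapped there too, with a log2 fold change of -0.13 ± 0.08 (SE) and of -0.35 after rescaling. The gpx4a to gpx4b ratio was 1.53, 2.12 and 1.72 in libraries labelled +/+ and 1.34, 1.73 and 1.43 in those labelled -/-, so that the groups overlapped while each pair of equal number was lower in the library labelled -/-. The 2 loci carry paralogous neighbours, with polr2eb and pip5k1ca at gpx4a and polr2ea and pip5k1cb at gpx4b. The polr2eb row lies inside gpx4a on the opposite strand and held 85.8 ± 3.0 against 81.6 ± 2.75 TPM. Its log2 fold change was -0.07 (limma, adjusted p = 0.438), or -0.30 after rescaling. The overlapping rows lie on opposite strands, and whether strand was used in counting is not stated.

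The glutathione peroxidase 1 paralogs, which reduce hydrogen peroxide in the cytosol, were less abundant than both gpx4 genes in every library. For gpx1a (ENSDARG00000018146.8, chromosome 11, minus strand, 36048579 to 36156971) the values were 63.3, 68.2 and 69.3 TPM in libraries labelled +/+ and 71.8, 81.1 and 67.0 TPM in those labelled -/-. The groups overlapped, and the log2 fold change of 0.13 ± 0.09 (SE) turned to -0.10 after rescaling. The deposited row of gpx1a spans 108.4 kb and overlaps brk1 and tex264b, so its value may hold reads of other transcripts. For gpx1b (ENSDARG00000006207.8, chromosome 6, plus strand, 42338309 to 42341219) the values were 31.1, 30.5 and 30.9 TPM against 34.7, 38.6 and 35.6 TPM. Every library labelled -/- lay above every one labelled +/+, by 1.11-fold at the closest. The log2 fold change of gpx1b was 0.23 ± 0.08 (SE) as deposited and 0.01 after rescaling. The gpx1a to gpx1b ratio was 2.17 ± 0.118 against 2.02 ± 0.121 (SD, n = 3 each), with overlapping groups. Set against gpx1a in the same library, gpx4a stood 12.2 ± 2.44 times higher in the group labelled +/+ and 8.54 ± 0.578 times in that labelled -/-, without overlap. Both genes were chosen with their values in view and the gpx1a row is uncertain, so this ratio is only a description.

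The 2 endoplasmic reticulum selenoproteins among the 10 genes differed in opposite directions as deposited. Selenoprotein F, which binds the glucosyltransferase that checks glycoprotein folding, is encoded by selenof (ENSDARG00000099664.2, chromosome 2, minus strand, 22353422 to 22363460). It held 111.6, 103.1 and 102.5 TPM in libraries labelled +/+ and 86.4, 84.7 and 75.1 TPM in those labelled -/-. Every library labelled -/- was lower, with a log2 fold change of -0.37 ± 0.09 (SE), or of -0.59 after rescaling. Selenoprotein T, a thioredoxin-like protein of the same organelle that has been tied to calcium handling and hormone secretion in mammals, is encoded by selenot1a (ENSDARG00000058354.6, chromosome 2, minus strand, 9684305 to 9696283). It held 39.1, 41.4 and 46.6 TPM against 59.5, 50.2 and 62.1 TPM. Every library labelled -/- was higher, and the log2 fold change was 0.43 ± 0.11 (SE), or 0.20 after rescaling. A row named 5S_rRNA lies inside selenot1a on the same strand and was too low to test. It held 0, 0.233 and 0 TPM in libraries labelled +/+ and 0, 0 and 0.0122 TPM in those labelled -/-.

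The selenot1a paralog selenot1b, on the list of further selenoproteins, lay lower, not higher, in every library labelled -/-. It held 37.8 ± 1.76 and 32.7 ± 1.64 TPM in libraries labelled +/+ and -/- (log2 fold change -0.21 ± 0.08, limma, adjusted p = 0.0804). It passed after rescaling (-0.43, adjusted p = 0.0208) and with the replicate block (adjusted p = 0.0297). Within a library, the ratio of selenot1a to selenot1b was 1.05, 1.04 and 1.27 in the group labelled +/+ and 1.80, 1.47 and 2.01 in that labelled -/-. The groups did not overlap, whatever the scaling.

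Selenoprotein W, a small cytosolic protein abundant in muscle, is encoded by selenow1 (ENSDARG00000035136.7, chromosome 5, plus strand, 61998641 to 62005081). It held 609, 598 and 555 TPM in libraries labelled +/+ and 591, 563 and 508 TPM in those labelled -/-. The groups overlapped, and replicate 3 was lowest in both. Its log2 fold change was -0.09 ± 0.08 (SE), or -0.31 after rescaling. Muscle markers summed to 60143 to 65934 TPM against 58749 to 63903 TPM over 13 genes. These sums overlapped too. The 13 genes come from 8 matched entries of 10, since 1 entry took several rows named TNNI2. Of the 13 markers 3 were higher and 1 lower, where 30.8% and 8.76% of all tested genes were, and none was at 0 in all libraries. After rescaling 1 was higher and 2 were lower, where 22.8% and 21.6% of all tested genes were. Their part in the selenow1 level was not tested.

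**Figure D3:**
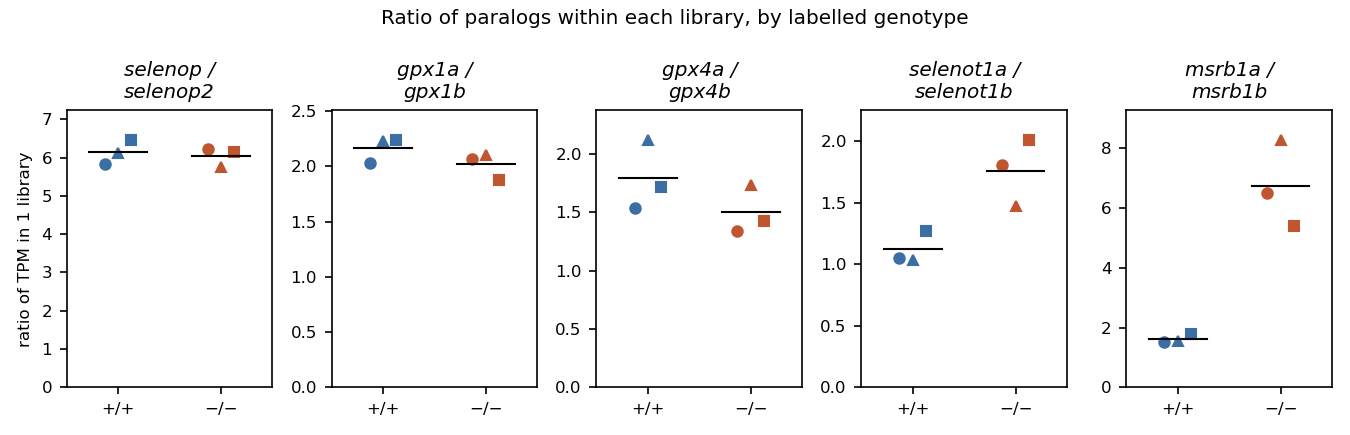
Ratio of TPM between paralogs within each library (vertical axis, linear from 0, with its own scale in each panel) by labelled genotype (horizontal axis). Points are libraries, shapes are replicate numbers as in the plot of TPM by gene, and lines are group means. The ratios of selenop, gpx1 and gpx4 paralogs overlap between groups, whereas selenot1a over selenot1b and msrb1a over msrb1b are higher in every library labelled -/-.

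The libraries of a group were not ordered alike in these genes and in the transcriptome. In the group labelled -/-, replicate 3 held the highest value for 59.8% of tested genes, but for 1 of the 10 selenoprotein genes (selenot1a). Replicate 2 held the highest value for 15.4% of tested genes and for 5 of the 10 (selenop, selenop2, gpx1a, gpx1b and gpx4a). In the group labelled +/+, replicate 3 was highest for 70.9% of tested genes and for 4 of the 10. All of the 10 but selenol stood from 209th to 2772nd of the 20330 tested genes by mean TPM. Replicate 3 labelled -/- had the smallest share of TPM in the 200 most abundant genes, 52.9%. Whether other genes of such levels are ordered in the same way was not tested.

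Of the further selenoproteins, 24 of 27 entries matched a gene, and of the 22 genes tested 6 were higher (background 30.8%) and 3 lower (background 8.76%) in the libraries labelled -/-. After rescaling, 5 were higher and 8 lower, where 22.8% and 21.6% of all tested genes were. Without replicate 2 labelled +/+ 0 were higher and 2 lower, when 657 of all 20330 genes were called. Without replicate 1 labelled +/+ 1 was higher and 2 were lower, when 891 of all genes were called. Without replicate 1 labelled -/- 3 were higher, when 4418 of all genes were called. With both libraries numbered 3 left out, as with replicate 3 labelled +/+ alone left out, 9 were higher. In those fits 10447 and 9677 of all genes were called. The median log2 fold change of the 22 was -0.02, against 0.22 for all tested genes. Whether each listed gene encodes selenocysteine was not checked on sequence here.

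The largest difference among these was in msrb1b, one of 2 genes for methionine sulfoxide reductase B1, which reverses the oxidation of methionine and acts on actin in mammals. The gene (ENSDARG00000045160.6, chromosome 12, plus strand, 18529311 to 18531943) held 18.7, 17.7 and 18.1 TPM in libraries labelled +/+ and 4.77, 3.79 and 4.17 TPM in those labelled -/-. It fell in all 3 libraries labelled -/- to a level 4.28-fold lower on average, with a log2 fold change of -1.98 ± 0.11 (limma, adjusted p = 7.23e-05). With any 1 library left out the adjusted p from limma stayed at or under 0.00114. Its paralog msrb1a did not pass the test, with 29.4 ± 2.61 and 28.2 ± 5.06 TPM (log2 fold change -0.07 ± 0.14, or -0.29 after rescaling, limma, adjusted p = 0.711). The msrb1a to msrb1b ratio was 1.62 ± 0.150 in the group labelled +/+ and 6.71 ± 1.45 in that labelled -/- (exact two-sided permutation test on the log2 ratio, p = 0.1, the smallest that 3 against 3 libraries allow). Ratios that do not overlap always give this p, and the pair was taken with its values known, so the test adds nothing to them. The msrb1b row lies within the span of meiob on the same strand. The meiob row was too low to test, at 0.321 ± 0.181 and 0.586 ± 0.204 TPM. How reads were divided between msrb1b and meiob is uncertain.

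Around msrb1b, other genes fell as well. Of 6 tested genes within 100 kb, 4 were lower and 0 higher, where 8.76% and 30.8% of all tested genes were. Again the window and the names were chosen after values were seen. Beside msrb1b, neurl2 had 3.73 ± 0.316 and 1.64 ± 0.136 TPM in libraries labelled +/+ and -/- (log2 fold change -0.98 ± 0.12, limma, adjusted p = 0.00409). Log2 fold changes of the other 3, bricd5, pgp and zdhhc4, ran from -0.71 to -0.61, with limma adjusted p of 0.0123, 0.00954 and 0.0328. Without replicate 1 or replicate 2 labelled +/+, bricd5 and zdhhc4 lost their call, with an adjusted p from limma of up to 0.0657 and 0.123. The call of zdhhc4 was also lost without replicate 1 or replicate 3 labelled -/-. For pgp the adjusted p from limma reached 0.0499 with 1 library left out, just under the threshold.

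Selenoprotein M, a redox protein of the endoplasmic reticulum related to selenoprotein F, fell as clearly. Its gene selenom (ENSDARG00000051957.7, chromosome 5, plus strand, 69278089 to 69287567) held 77.6, 84.9 and 77.3 TPM in libraries labelled +/+ and 33.7, 32.1 and 34.9 TPM in those labelled -/-. Its log2 fold change was -1.24 ± 0.08 (limma, adjusted p = 0.000148), and with any 1 library left out the adjusted p stayed at or under 0.00219. Around selenom, 3 of 6 tested genes within 100 kb were higher and 0 lower, where 30.8% and 8.76% of all tested genes were. The last of the 3 genes that fell was selenow2b, a relative of selenow1, from 59.4 ± 3.97 to 44.0 ± 5.51 TPM (log2 fold change -0.43 ± 0.11, or -0.66 after rescaling, limma, adjusted p = 0.0222). Without replicate 1 or replicate 2 labelled +/+ it did not pass, with an adjusted p from limma of up to 0.0918.

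**Figure D4:**
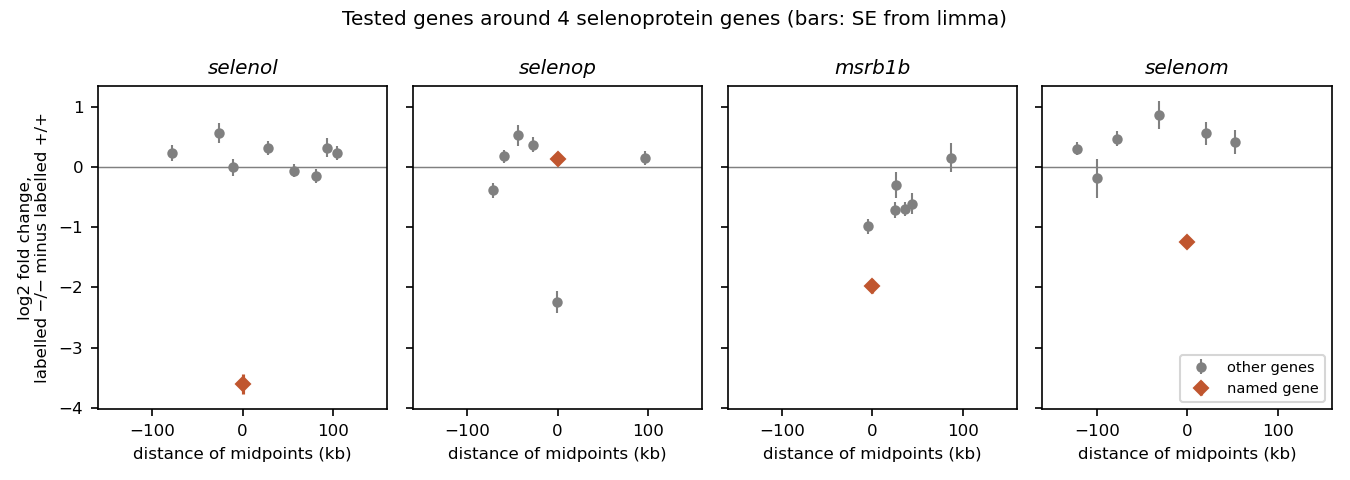
Log2 fold change on log2(TPM + 0.5), libraries labelled -/- minus those labelled +/+ (vertical axis), of tested genes within 100 kb of selenol, selenop, msrb1b and selenom, by the distance between gene midpoints in kb (horizontal axis). Diamonds are the named gene, circles other genes and bars the standard error from limma. The named gene lies below its neighbours at selenol and selenom, and at selenop the row inside its span lies at -2.24. At msrb1b 4 neighbours were called lower with the named gene, where 8.76% of all tested genes were.

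Of the 22 tested genes 6 rose, where 30.8% of all tested genes did, and they are given singly. The deiodinase gene dio1 rose from 4.67 ± 1.06 to 7.99 ± 0.916 TPM (log2 fold change 0.73 ± 0.17, limma, adjusted p = 0.0185). The thioredoxin reductase gene txnrd3 rose from 49.2 ± 7.39 to 71.4 ± 6.60 TPM (0.54 ± 0.12, or 0.31 after rescaling, limma, adjusted p = 0.0182). The pseudokinase-like AMP transferase gene selenoo1 rose from 7.05 ± 1.55 to 12.7 ± 1.31 TPM (0.82 ± 0.16, limma, adjusted p = 0.0136). A fish selenoprotein of the U family, selenou1b, rose from 1.14 ± 0.177 to 1.99 ± 0.134 TPM (0.60 ± 0.13, limma, adjusted p = 0.0166). SEPHS2, whose product makes the selenophosphate that all selenocysteine synthesis uses, rose from 25.2 ± 4.45 to 34.6 ± 2.73 TPM (0.46 ± 0.13, limma, adjusted p = 0.0305), and after rescaling it did not pass (0.24, adjusted p = 0.0643). One of 2 overlapping rows named TXNRD2, ENSDARG00000094470.2, had 2.26, 0.564 and 0.271 TPM against 4.20, 3.23 and 4.61 TPM, and its split from the other row is uncertain. That other row, ENSDARG00000075923.5, held 5.81 ± 1.26 and 7.42 ± 0.603 TPM with overlapping groups. It did not pass (log2 fold change 0.34, or 0.13 after rescaling, limma, adjusted p = 0.117). With the replicate block in limma it did (adjusted p = 0.0210). Each of the 6 lost its call without replicate 2 labelled +/+. With 1 library left out, the adjusted p from limma reached 0.0664 for selenoo1 and 0.117 for SEPHS2.

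At the other extreme, selenoh varied about as much within a group as over all 6 libraries. This gene of a nucleolar redox protein had 53.6, 31.4 and 5.27 TPM in libraries labelled +/+. In those labelled -/- it had 51.6, 6.79 and 12.0 TPM. Its log2 fold change was -0.36 (limma, adjusted p = 0.765), or -0.58 after rescaling. By the mean over all libraries selenou1a was the most abundant of the 24 genes, with 69.1 ± 4.16 and 66.5 ± 2.91 TPM in the groups labelled +/+ and -/-. Its log2 fold change was -0.05 as deposited (limma, adjusted p = 0.605). After rescaling it was called lower (-0.28, limma, adjusted p = 0.0421). Of the other deiodinases, dio3b held 6.24 ± 1.03 and 8.54 ± 1.52 TPM. Its log2 fold change was 0.42 (limma, adjusted p = 0.0720, or 0.0340 with the replicate block), or 0.21 after rescaling. The gene dio2, at 0.220 ± 0.0249 and 0.504 ± 0.0682 TPM, was not tested.

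In the machinery that makes and inserts selenocysteine, 2 genes were higher and 1 was lower. Of 14 entries 11 matched a gene and all 11 were tested, against 30.8% of all tested genes higher and 8.76% lower. The nucleolin gene ncl, whose product binds the RNA element of selenoprotein messages in mammals, rose from 116.3 ± 10.1 to 180.0 ± 28.5 TPM (log2 fold change 0.62 ± 0.13, or 0.39 after rescaling, limma, adjusted p = 0.0148). SEPHS2 stands on this list as well. The gene trnau1apa, for a protein that binds the selenocysteine transfer RNA, fell from 12.0 ± 0.783 to 9.57 ± 0.623 TPM (-0.32 ± 0.11, or -0.53 after rescaling, limma, adjusted p = 0.0449), and it lost its call with any 1 library left out, with an adjusted p of up to 0.138. The genes of the elongation factor eefsec and of secisbp2, which recruits it, did not pass, with limma adjusted p of 0.720 and 0.0695, though secisbp2 did with the replicate block (0.0101). Log2 fold changes of eefsec and secisbp2 were 0.05 and 0.35, or -0.17 and 0.14 after rescaling. The most abundant gene of the list was rpl30, a ribosomal protein gene, at 2437 ± 182 and 2217 ± 139 TPM. Its log2 fold change was -0.14 (limma, adjusted p = 0.225), or -0.36 after rescaling. Without replicate 1 or replicate 2 labelled +/+, 0 of the 11 were called, when 891 and 657 of all 20330 genes were. Without replicate 1 or replicate 3 labelled -/- 1 was, when 4418 and 4481 of all genes were. With the replicate block 6 were, where 58.8% of all tested genes were.

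Genes of the lipoprotein receptor family, of which LRP8 and LRP2 take up selenoprotein P in mammals, were higher where tested as deposited. Of 6 entries 4 matched, and all 3 tested were called higher, where 30.8% of all tested genes were. The endocytic receptor gene lrp2a rose from 2.19 ± 0.463 to 4.77 ± 0.888 TPM (log2 fold change 0.97 ± 0.18, limma, adjusted p = 0.0120). The gene lrp8 rose from 2.77 ± 0.237 to 4.20 ± 0.798 TPM (0.51 ± 0.15, limma, adjusted p = 0.0343) and lrp1ba from 0.981 ± 0.221 to 1.61 ± 0.334 TPM (0.51 ± 0.17, limma, adjusted p = 0.0428). After rescaling, lrp2a alone of the 3 passed, where 22.8% of all tested genes were higher, with lrp8 at 0.31 (adjusted p = 0.0725) and lrp1ba at 0.35 (adjusted p = 0.0674). Without replicate 3 labelled -/- 1 of the 3 passed, and none of the 3 passed without replicate 1 or replicate 2 labelled +/+. Markers of neurons, in which lrp8 is known to be made, summed to 492 to 654 TPM against 765 to 1092 TPM over 10 genes. Of these markers 8 were higher and 0 lower, where 30.8% and 8.76% of all tested genes were, and none was at 0 in all libraries. After rescaling 8 markers were higher and 1 was lower, where 22.8% and 21.6% of all tested genes were. Without replicate 1 labelled +/+ 1 marker was higher, and without replicate 2 labelled +/+ 0 were, in those same fits with few calls. Their part in the receptor levels was not tested.

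Of 12 tested genes of related peroxidases, reductases and redoxins, 1 was higher and 3 were lower as deposited, where 30.8% and 8.76% of all tested genes were. After rescaling 0 were higher and 7 lower, where 22.8% and 21.6% of all tested genes were, and 5 did not pass. Those lower as deposited were gpx7, an endoplasmic reticulum peroxidase (log2 fold change -0.44 ± 0.10, limma, adjusted p = 0.0197), gpx2 (-0.46 ± 0.12, limma, adjusted p = 0.0235) and the glutaredoxin gene glrx (-0.28 ± 0.09, or -0.50 after rescaling, limma, adjusted p = 0.0431). The higher one was glrx3 (0.44 ± 0.12, limma, adjusted p = 0.0268), which did not pass after rescaling (0.22, adjusted p = 0.0635). The most abundant gene of this list was glrx, at 150.4 ± 5.99 and 124.4 ± 11.8 TPM. All 4 lost their call without replicate 1 or replicate 2 labelled +/+, with an adjusted p of at most 0.144.

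In a wider list of antioxidant genes, 26 were tested, and 3 were higher and 3 lower, where 30.8% and 8.76% of all tested genes were. Those higher were keap1b, which represses the antioxidant regulator Nrf2 (log2 fold change 0.76 ± 0.18, limma, adjusted p = 0.0189), the glutathione reductase gene gsr (0.41 ± 0.11, limma, adjusted p = 0.0251) and gclc, for the enzyme that starts glutathione synthesis (0.50 ± 0.15, limma, adjusted p = 0.0345). After rescaling gsr (0.19, adjusted p = 0.0927) and gclc (0.28, adjusted p = 0.0527) did not pass. Those lower were the peroxiredoxin genes prdx6 (-0.43 ± 0.09, or -0.66 after rescaling, limma, adjusted p = 0.0168) and prdx1 (-0.56 ± 0.14, limma, adjusted p = 0.0226) and the Nrf2 gene nfe2l2a (-0.26 ± 0.07, or -0.48 after rescaling, limma, adjusted p = 0.0285). This prdx1 row lies on chromosome 2 and held 84.0 ± 14.9 and 56.3 ± 5.46 TPM in libraries labelled +/+ and -/-. A more abundant row named PRDX1, on chromosome 1, held 970.9 ± 31.3 and 922.6 ± 54.3 TPM with overlapping groups. It did not pass (-0.07 ± 0.07, or -0.30 after rescaling, limma, adjusted p = 0.423). The count depended on the scaling: after rescaling, 1 was higher and 12 were lower, where 22.8% and 21.6% of all tested genes were. Without replicate 1 or replicate 2 labelled +/+, 0 of the 26 were called in either direction, and without replicate 1 or replicate 3 labelled -/- 1 was higher. Without replicate 3 labelled -/- 1 was lower.

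Some markers of other cell types were called as well, where 30.8% of all tested genes were called higher and 8.76% lower. Keratinocyte markers summed to 17980 to 20019 TPM in libraries labelled +/+ and 14925 to 16076 TPM in those labelled -/- over 8 genes, with 1 higher and 3 lower. Erythroid markers summed to 2289 to 3409 TPM against 1905 to 2213 TPM over 6 genes, with 0 higher and 2 lower. Intestine markers summed to 2470 to 3287 TPM against 2991 to 3480 TPM over 10 genes, with 6 higher and 0 lower. The intestine sums overlapped between the groups. Each such sum mostly reflects its most abundant genes. After rescaling, keratinocyte markers gave 1 higher and 4 lower, erythroid markers 0 and 4, and intestine markers 5 and 0. In that fit 22.8% and 21.6% of all tested genes were higher and lower. The counts as deposited also rest on single libraries: without replicate 2 labelled +/+, 0 hepatocyte markers passed in either direction, 2 intestine markers were higher, 1 keratinocyte marker was lower and 1 muscle marker was higher. Over all 6 ways of leaving out 1 library, 0 to 5 hepatocyte markers were higher and 0 to 5 lower, and 1 to 2 erythroid markers were lower. No marker of these lists was at 0 in all libraries, and the part of any of these cell types in the selenoprotein levels was not tested.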

How the data were processed

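Polyadenylated RNA of whole larvae was sequenced as stranded paired-end libraries, per the labels' protocols. Tools named in the submitters' processing notes are StringTie 1.3.3b, STAR 2.5.3a and DESeq2 1.16.1, and builds are danRer11 and hg38, with no roles given. That danRer11 is the build of the printed coordinates is not given beyond those notes. Per the file headers, each deposited abundance table gives coverage (a mean signal per base), FPKM and TPM per gene, with no counts, so no interval from counting can be given. A deposited table of the authors' own test has the columns of DESeq2 per the file headers, holding p-values, a score, a log2 fold change with its error and a signal of mean normalized counts, and with no stated direction.

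Rows of 1 gene were summed. Of 32520 genes 29201 had a symbol in a table of Ensembl identifiers, and 10925 were named by the single matching paralog on their chromosome in the RefSeq gene table of assembly GRCz12tu. PRDX1, SEPHS2, TXNRD2 and EEF2 keep a family symbol. A filter of 1 TPM in 3 or more samples left 20330 genes, whose log2(TPM + 0.5) was fitted with limma 3.58.1 in R 4.3.3 (trend, Benjamini-Hochberg adjustment, threshold 0.05). Fold changes, labelled -/- minus labelled +/+, use that log2(TPM + 0.5) scale and so understate changes of low genes. The fit was tested on simulated data. The members and the lists were chosen with earlier results of these data known. The text names all 10 members and the called and most abundant genes of each related list. It also names the 6 antioxidant genes with the smallest p, the PRDX1 row, the 5 genes most like selenol, and rows overlapping a member or msrb1b. Tables were read with Python 3.11.15 and pandas 2.3.3.

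Deviations from the group means correlated at 0.25, 0.19 and 0.48 between equal replicate numbers, each over 0.1, the rule used for pairing. Replicate 1 labelled +/+ also correlated at 0.29 with replicate 2 labelled -/-, above the 0.25 and 0.19 of equal numbers. The data thus do not single out equal numbers for replicates 1 and 2. The pairing comes from the data alone, with no clutch or day in the labels. Results are from the fit without the replicate block. Alternatives were pseudocounts, filters, scalings, FPKM, the block and leaving out libraries.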

Additional observations from a re-analysis of the deposited data

How the results depend on the processing

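Over the alternatives for 26 named genes that are no members, 323 fold changes kept their direction and side of the threshold and 86 lost a call. For the 10 members, 134 fold changes moved by less than the spread between replicates and 25 by more, with 7 calls lost and 10 gained among them. After rescaling, selenop, selenop2 and gpx1a turned negative, of which selenop and selenop2 were called higher without both libraries numbered 3. Genes called across the transcriptome numbered 8046 of 20330, 5238 with a mean of at least 5 TPM, and from 657 to 9677 with 1 library left out. They numbered 9028 after rescaling, 8413 with quantile scaling and 8823 with FPKM. Under the replicate block 11960 were called, under the block with rescaling 11730, and without both libraries numbered 3 (chosen after seeing the data) 10447. In these last 3 fits, called members numbered 5, 6 and 6, so they moved along with the calls over all genes. Called members numbered 3 in the main fit, and from 1 to 4 with 1 library left out. Further selenoproteins numbered 6 higher, from 0 to 9 with 1 library left out, and 3 lower, with 8 after rescaling, 6 with quantile scaling, 5 with FPKM, 10 under the replicate block with rescaling, and 2 to 3 with 1 library left out. Called machinery genes numbered 3, with 1 without the filter, 6 under the replicate block, 5 under the block with rescaling, and 0 to 4 with 1 library left out. Antioxidant genes numbered 3 higher, with 1 after rescaling, 5 under the replicate block, 5 without both libraries numbered 3, and 0 to 4 with 1 library left out. They numbered 3 lower, with 12 after rescaling, 6 with quantile scaling, 5 with FPKM, 15 under the replicate block with rescaling, and 0 to 3 with 1 library left out. The cause of these changes was not tested, beyond that the higher filter tests fewer genes. TPM gives no depth, so low genes such as selenol labelled -/-, dio2 and the TXNRD2 rows carry no counting error here, and 3 libraries per group limit the precision.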
